A study of Mus musculus with 6 samples.

Results

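The 30 genes described here encode the enzymes of cholesterol and fatty acid synthesis and the SREBP regulators that switch them on. They are a list of mouse symbols set by name with earlier results of these data known, and the rule applies no threshold to a measured value. All 30 were found among the 57180 gene identifiers of the table, and all 30 were among the 18143 genes with enough reads to be tested. Polyadenylated RNA of cultured mouse fibroblasts was counted in 6 libraries, 1 library for each combination of 3 tissues of origin (cardiac, lung and tail tip) and 2 adenoviruses. One virus delivers Cre recombinase, which cuts out DNA between its recognition sites (Ad-Cre, given in the labels as the GATA4 knockout), and the other delivers green fluorescent protein (Ad-GFP, the control). All 6 libraries carry the genotype WT, a culture medium of DMEM with 10% FBS, a time of 48 h after infection and the same batch entry, which repeats that time. The labels name no strain, no age and no deleted part of Gata4, and they do not say how many animals or cultures a library holds.

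Cholesterol is built from acetyl-CoA by way of mevalonate, the isoprenoid diphosphates, squalene and lanosterol, while fatty acids are built from the same acetyl-CoA by way of malonyl-CoA and palmitate. The SREBP proteins are held in the membrane of the endoplasmic reticulum with their escort Scap. When membrane sterols fall, Scap carries them to the Golgi, where they are cleaved, and the released part enters the nucleus and switches on most genes of both routes together with the factors NF-Y and Sp1. When sterols are plentiful, Insig proteins keep Scap in place. Fibroblasts in serum can take cholesterol from lipoproteins or make it, so the level of these genes is a common readout of their sterol supply.

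RefSeq promoter windows (build GRCm38.p6, 250 bases before to 50 bases after a transcript start) were found for 23 of the 30 genes, and 4 are shown because they belong to genes that stand for the different patterns across origins described below. Hmgcs1 (chr13:119690101-119690400, plus strand) and Srebf2 (chr15:82147019-82147318, plus strand) had their lowest RNA in cardiac fibroblasts, Fasn (chr11:120824498-120824797, minus strand) its highest in lung fibroblasts, and Lss (chr10:76531355-76531654, plus strand) its highest in tail tip fibroblasts. Each is printed 5′ to 3′ on the strand of its gene, and capitals mark a sterol regulatory element core (TCACNCCAC) or an NF-Y box (CCAAT) read on either strand, so that ATTGG is a box on the other strand.
Hmgcs1: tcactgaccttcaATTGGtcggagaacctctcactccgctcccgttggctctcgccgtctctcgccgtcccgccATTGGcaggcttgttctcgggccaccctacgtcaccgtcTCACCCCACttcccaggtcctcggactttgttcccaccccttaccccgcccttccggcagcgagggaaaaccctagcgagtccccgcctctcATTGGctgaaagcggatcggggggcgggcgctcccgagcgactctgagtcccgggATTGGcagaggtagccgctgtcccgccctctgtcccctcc
Srebf2: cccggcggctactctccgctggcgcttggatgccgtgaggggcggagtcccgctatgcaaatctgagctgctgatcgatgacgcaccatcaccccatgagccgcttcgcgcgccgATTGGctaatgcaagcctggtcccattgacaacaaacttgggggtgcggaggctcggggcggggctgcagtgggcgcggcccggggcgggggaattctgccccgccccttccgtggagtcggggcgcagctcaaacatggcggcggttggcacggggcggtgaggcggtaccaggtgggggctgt
Fasn: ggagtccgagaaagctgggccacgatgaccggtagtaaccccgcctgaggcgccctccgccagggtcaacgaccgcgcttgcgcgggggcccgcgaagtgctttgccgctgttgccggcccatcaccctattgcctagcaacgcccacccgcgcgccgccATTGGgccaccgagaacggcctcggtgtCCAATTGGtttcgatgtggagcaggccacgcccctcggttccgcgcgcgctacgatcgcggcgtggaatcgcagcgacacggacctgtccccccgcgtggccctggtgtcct
Lss: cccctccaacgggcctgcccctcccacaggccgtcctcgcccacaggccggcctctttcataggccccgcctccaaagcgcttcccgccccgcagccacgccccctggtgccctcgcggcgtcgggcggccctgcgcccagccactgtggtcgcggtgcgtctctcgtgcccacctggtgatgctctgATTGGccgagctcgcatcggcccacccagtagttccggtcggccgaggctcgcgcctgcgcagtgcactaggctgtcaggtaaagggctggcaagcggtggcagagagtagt
The only exact match to the sterol regulatory element core in the windows of the 23 genes was that of Hmgcs1. It began 137 bases before the start, and 1.436% of all genes with a window held such a match. Variants were not searched, so tcaccccat in the Srebf2 window, which differs from the core in its last letter, was not counted. An NF-Y box was present for 19 of the 23 genes, against 41.06% of all genes, and a GC box (GGGCGG, the letters bound by Sp1) for 20 of 23, against 38.2%. In Fasn the 2 boxes nearest the start share letters, since they form the run CCAATTGG. The E-box CACGTG was present for 5 of 23 genes (Dhcr7, Hsd17b7, Insig1, Sc5d and Scap), against 8.093% of all genes. Both strands were searched, a match is a description and no site, and letters outside a window were not read. A gene with more than 1 window counts if any of its windows holds a match. By window, an NF-Y box was in 20 of 29, against 37.41% of all windows, and a GC box in 23 of 29, against 35.66%. The E-box was in 6 of 29 windows, against 7.15%. The shares over all genes take in every gene with a window, also those with too few reads to be tested here. They are thus not matched to the members in expression. No other matches of the 4 motifs in the 23 genes shared letters, and GC boxes are left in lower case. The E-box would be in capitals too, but none lies in the 4 windows shown.

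Total counts ran from 26170316 (lung, Ad-Cre) to 33779069 (cardiac, Ad-GFP), and a gene with 0 reads could hold up to 3 counts, or 0.0906 to 0.117 CPM (counts per megaread of the library, scaled by TMM factors). Gata4 (ENSMUSG00000021944), the targeted gene, stood at 149 CPM with Ad-Cre and 147 CPM with Ad-GFP in cardiac fibroblasts, and at 19.2 CPM with Ad-Cre and 14.7 CPM with Ad-GFP in lung fibroblasts. It was thus not lower where the label says Ad-Cre: the Ad-Cre over Ad-GFP ratio was 1.02 in cardiac and 1.31 in lung fibroblasts, and tail tip fibroblasts held 2 reads with Ad-Cre and 1 with Ad-GFP. Directions between the viruses therefore rest on the labels alone, and values given as with Ad-Cre are those of the library labelled so. All 8 fibroblast markers were read, and their summed level ran from 4930 to 16693 CPM. The libraries were not alike in other cells: 12 macrophage markers summed to 637 CPM (Ad-Cre) and 1061 CPM (Ad-GFP) in cardiac, 20.6 and 30.3 CPM in lung, and 4577 and 5402 CPM in tail tip fibroblasts with the same viruses. C1qa and C1qb were at 0 in both lung libraries. Most of the cardiac and tail tip sums came from Lyz2. That gene was at 3388 CPM (Ad-Cre) and 3955 CPM (Ad-GFP) in tail tip, and at 0.429 and 1.34 CPM in lung fibroblasts. Mrc1 did not follow the sums, with 5.42 CPM (Ad-Cre) and 10.6 CPM (Ad-GFP) in lung and 6.01 and 3.11 CPM in tail tip fibroblasts. The 8 mitosis genes summed to 1671 (Ad-Cre) and 1481 CPM (Ad-GFP) in cardiac, 3147 and 2938 CPM in lung, and 299 and 318 CPM in tail tip fibroblasts. The part of these differences in the results below was not tested, and in bulk RNA fewer cells of a type and less RNA per cell cannot be told apart.

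The first question was how the genes differ between the origins. Most of them were lower in cardiac than in lung fibroblasts, with 19 of 30 lower, 1 higher (Dhcr7) and 10 not past the threshold (edgeR, Benjamini-Hochberg adjusted p under 0.05). Over all genes tested, 38.4% were called in that comparison, 17.6% lower and 20.8% higher. The median log2 fold change of the 30 genes was -0.65, against -0.01 over all genes tested. Against tail tip fibroblasts the cardiac cells had 17 of 30 genes lower and 2 higher (Fads1 and Fads2), where 33.5% of all genes were called, 18% lower and 15.5% higher. There the median was -0.58, against -0.06 over all genes. Lung and tail tip fibroblasts differed in both directions, with 8 genes higher and 8 lower in lung, a median of -0.05 and a median over all genes of -0.06. In that comparison 50.6% of all genes were called, 22.3% higher and 28.2% lower. The 3 comparisons share libraries, so their counts are not independent. With 1 library per group the model leaves 2 residual degrees of freedom, to which edgeR adds a prior drawn from all genes (median 5.12 degrees of freedom). The residual holds any virus difference particular to an origin together with other spread between these libraries, which may be technical. These parts cannot be told apart here.

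**Figure D1:**
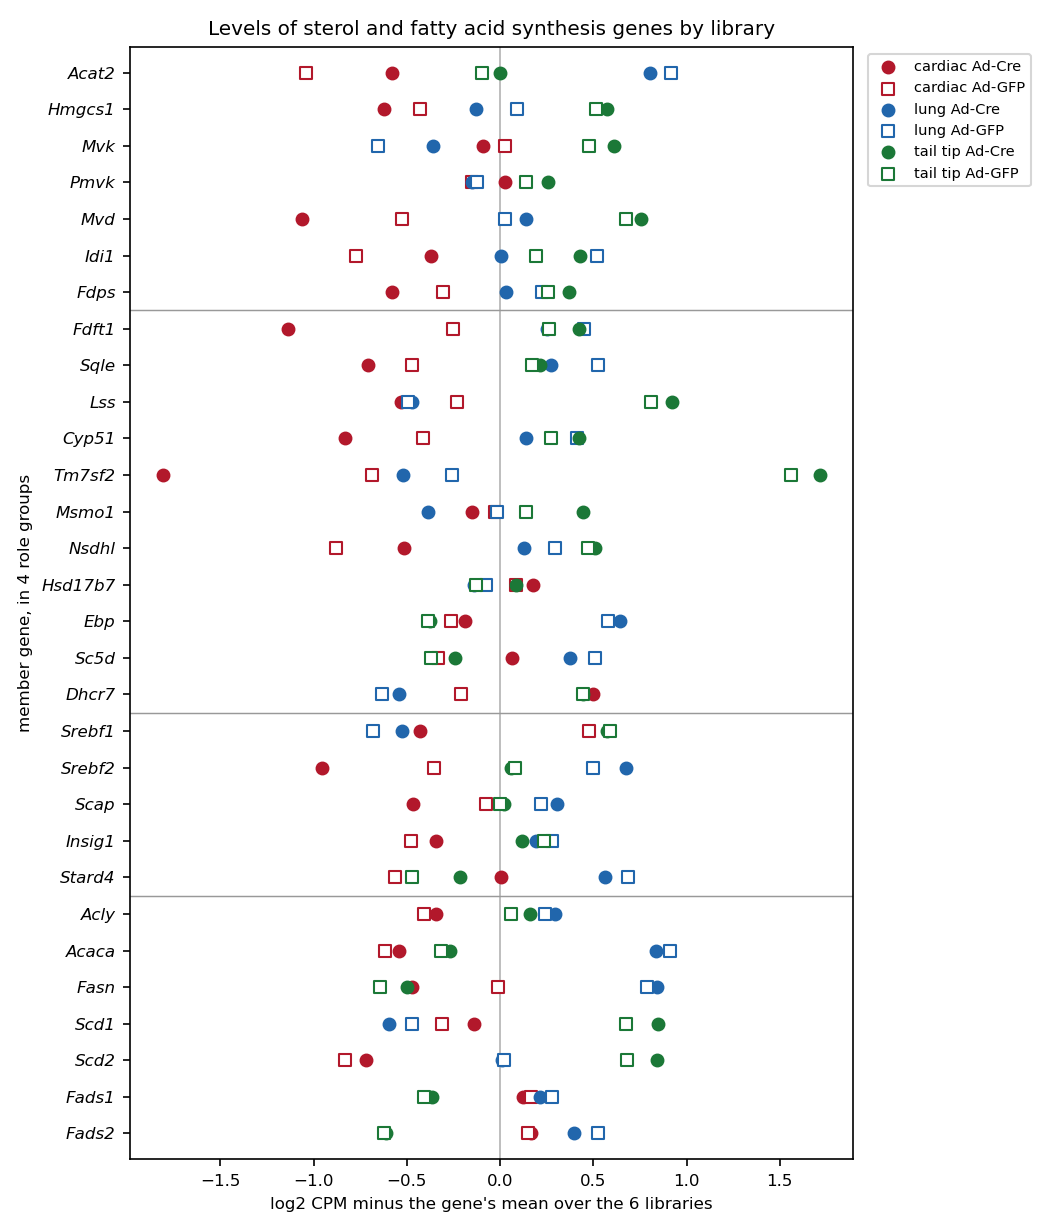
Level of each of the 30 genes in each library, as log2 CPM minus the gene's mean over the 6 libraries, with filled circles for Ad-Cre, open squares for Ad-GFP and a colour for each origin; lines separate the 4 role groups. The red cardiac points lie left of the other 4 for 16 genes, and the green tail tip points lie far right for Tm7sf2 and Lss.

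**Figure D2:**
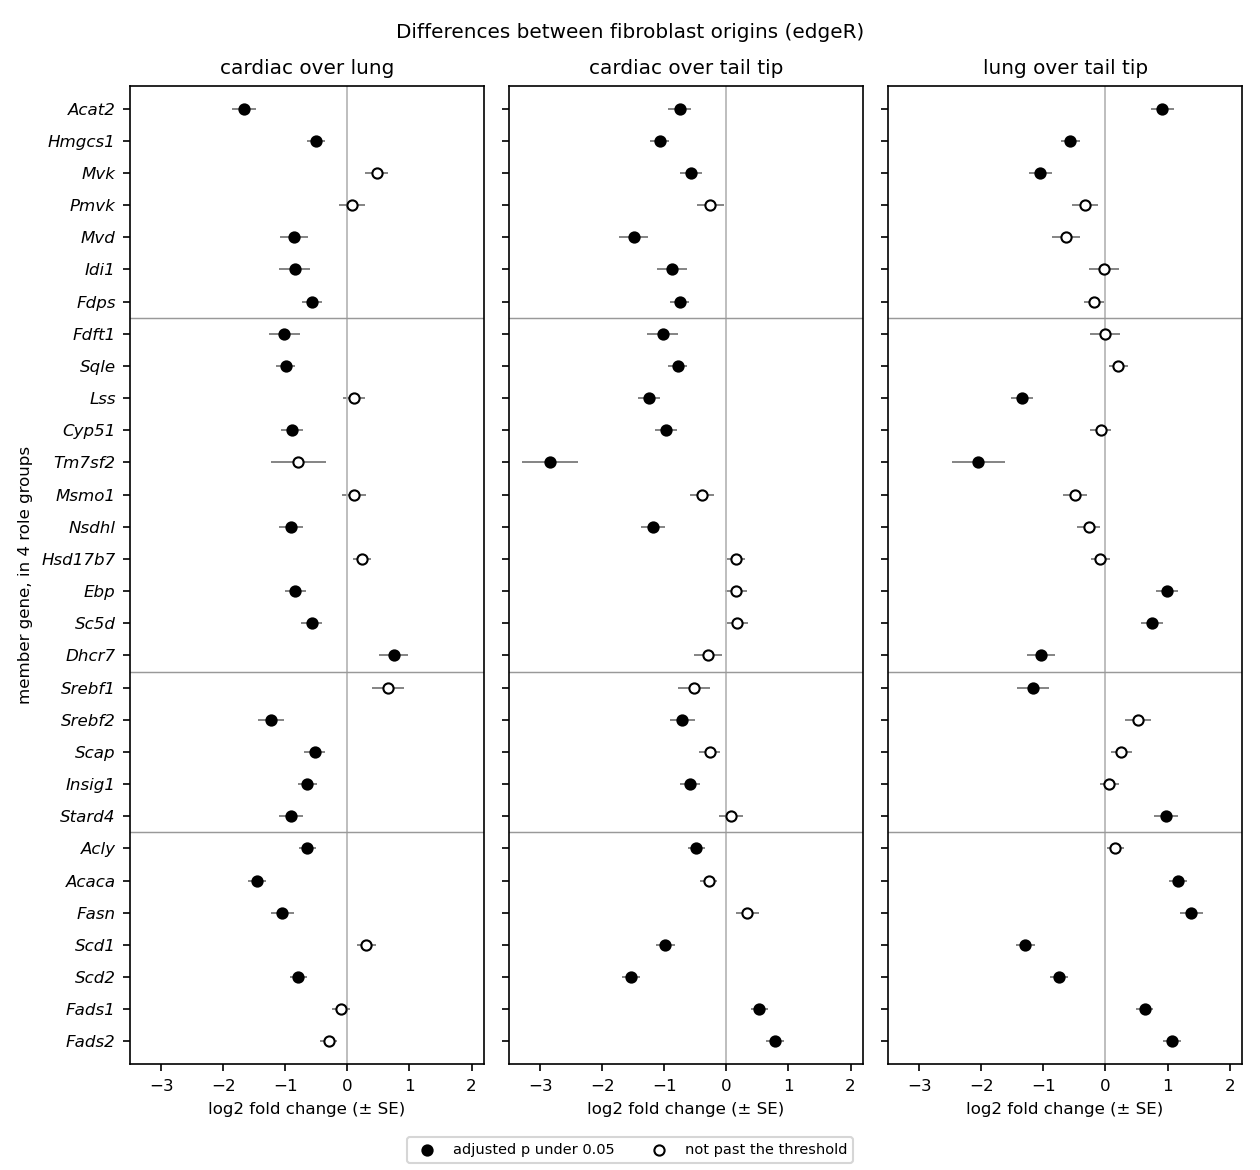
Log2 fold change (± SE, edgeR) of each gene for cardiac over lung, cardiac over tail tip and lung over tail tip fibroblasts, with filled points for an adjusted p under 0.05. Filled points lie left of 0 for 19 genes in the first panel and 17 in the second, and 8 on each side in the last.

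In the steps to mevalonate and the isoprenoids, 5 of 7 genes were lower in cardiac than in lung and 6 of 7 lower than in tail tip fibroblasts. Of all genes, 17.6% and 18% were lower in these comparisons. Acat2 (ENSMUSG00000023832), the cytosolic thiolase that joins acetyl-CoA units, stood at 22.9 CPM in cardiac, 59.7 in lung and 34.2 in tail tip fibroblasts with Ad-Cre, and at 16.6, 64.7 and 32.1 CPM in the same origins with Ad-GFP. The origins did not overlap, with lung highest and cardiac lowest. Its log2 fold change was -1.67 ± 0.19 (SE) for cardiac over lung (edgeR adjusted p = 0.000714), the largest of the 30 genes there. It was -0.75 ± 0.19 for cardiac over tail tip (edgeR adjusted p = 0.0205) and 0.91 ± 0.19 for lung over tail tip (edgeR adjusted p = 0.00538). Hmgcs1 (ENSMUSG00000093930), the HMG-CoA synthase whose promoter holds the sterol element shown above, had another order. With Ad-Cre it was at 66.7 CPM in cardiac, 93.8 in lung and 153 in tail tip fibroblasts, and with Ad-GFP at 76.1, 109 and 147 CPM. Tail tip was thus highest and cardiac lowest, again without overlap. The log2 fold change was -1.07 ± 0.15 for cardiac over tail tip (edgeR adjusted p = 0.00191), -0.51 ± 0.15 for cardiac over lung (0.0340) and -0.57 ± 0.15 for lung over tail tip (0.0168).

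Mvd, the decarboxylase that makes isopentenyl diphosphate, followed the order of Hmgcs1. It stood at 7.01 CPM in cardiac, 16.1 in lung and 24.7 in tail tip fibroblasts with Ad-Cre, and at 10.2, 14.9 and 23.4 CPM with Ad-GFP. It was lower in cardiac than in tail tip fibroblasts by a log2 fold change of -1.49 ± 0.23 (edgeR adjusted p = 0.00300), and than in lung by -0.86 ± 0.23 (0.0243), while lung over tail tip, at -0.63 ± 0.23, just missed the threshold (0.0517). Idi1, which isomerises isopentenyl diphosphate, and Fdps, which makes farnesyl diphosphate, were lower in cardiac fibroblasts than in both others. Idi1 had 19.5 CPM in cardiac, 25.3 in lung and 34.05 in tail tip fibroblasts with Ad-Cre, and 14.8, 36.1 and 28.9 CPM with Ad-GFP. Fdps had 45.8, 70.0 and 88.3 CPM with Ad-Cre in the same order of origins, and 55.4, 79.9 and 81.8 CPM with Ad-GFP. Neither differed past the threshold between lung and tail tip, where Idi1 was at -0.03 ± 0.24 and Fdps at -0.19 ± 0.16.

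The kinases between these steps behaved differently. Mvk, which phosphorylates mevalonate, was lowest in lung, with 20.8 CPM in cardiac, 17.2 in lung and 33.8 in tail tip fibroblasts with Ad-Cre, and 22.5, 14.0 and 30.8 CPM with Ad-GFP. It was lower in lung than in tail tip by a log2 fold change of -1.05 ± 0.18 (edgeR adjusted p = 0.00276) and lower in cardiac than in tail tip by -0.57 ± 0.18 (0.0476), and cardiac over lung was 0.48 ± 0.18 (0.0797). Pmvk, the next kinase, stayed between 9.16 and 12.1 CPM in all 6 libraries and passed in no comparison.

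From squalene to cholesterol, 6 of 11 genes were lower in cardiac than in lung and 6 of 11 lower than in tail tip fibroblasts, and 1 was higher than in lung. The shares over all genes were 17.6%, 18% and 20.8% in the same order. Fdft1 (ENSMUSG00000021273), the squalene synthase that commits farnesyl diphosphate to sterols, stood at 20.2 CPM in cardiac, 52.8 in lung and 59.5 in tail tip fibroblasts with Ad-Cre, and at 37.3, 60.6 and 53.2 CPM with Ad-GFP. The cardiac pair lay below the other 4 libraries, while lung and tail tip overlapped. On the log2 scale the difference was -1.01 ± 0.25 for cardiac over lung (edgeR adjusted p = 0.0175) and -1.02 ± 0.25 for cardiac over tail tip (0.0193). Sqle, the squalene epoxidase and a slow step of the route, had 56.3 CPM in cardiac, 111 in lung and 107 in tail tip fibroblasts with Ad-Cre, and 66.3, 132 and 103 CPM with Ad-GFP. Its fold changes against lung (-0.99 ± 0.15) and tail tip (-0.78 ± 0.15) passed as well. Cyp51, the lanosterol demethylase, had 53.4, 104 and 127 CPM with Ad-Cre in cardiac, lung and tail tip fibroblasts, and 71.3, 126 and 115 CPM with Ad-GFP. It was lower in cardiac by -0.89 ± 0.18 against lung and -0.97 ± 0.18 against tail tip. Nsdhl, a sterol dehydrogenase that acts in removing methyl groups, had 17.9, 28.0 and 36.4 CPM with Ad-Cre and 13.9, 31.3 and 35.4 CPM with Ad-GFP in the same origins. Its log2 fold changes for cardiac were -0.91 ± 0.19 against lung and -1.18 ± 0.19 against tail tip. All 4 of these genes were called against both other origins.

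Lss and Tm7sf2 stood out by their tail tip level. Lss (ENSMUSG00000033105), the cyclase that makes lanosterol, was at 19.6 CPM in cardiac, 20.5 in lung and 53.7 in tail tip fibroblasts with Ad-Cre, and at 24.2, 20.2 and 49.9 CPM with Ad-GFP. Both tail tip libraries were above the other 4, whose values overlapped between cardiac and lung. It changed by -1.25 ± 0.18 for cardiac over tail tip (edgeR adjusted p = 0.00197) and -1.35 ± 0.18 for lung over tail tip (0.000712), against 0.10 ± 0.18 for cardiac over lung. Tm7sf2, a sterol reductase that acts after Cyp51, was low throughout, with 0.622, 1.52 and 7.16 CPM in cardiac, lung and tail tip fibroblasts with Ad-Cre and 1.35, 1.82 and 6.42 CPM with Ad-GFP. These levels rest on 19 to 237 reads. It had the largest fold change of the 30 genes, -2.84 ± 0.45 for cardiac over tail tip (edgeR adjusted p = 0.00335) and -2.05 ± 0.43 for lung over tail tip (0.00645). In the GENCODE M21 annotation it shares exon sequence on the same strand with Vps51, so reads of the 2 genes may not be separable.

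Ebp, the sterol isomerase, was highest in lung fibroblasts, with 16.7 CPM in cardiac, 29.7 in lung and 14.6 in tail tip fibroblasts with Ad-Cre and 15.8, 28.3 and 14.5 CPM with Ad-GFP. On the log2 scale it changed by -0.84 ± 0.17 for cardiac over lung and 0.99 ± 0.17 for lung over tail tip (edgeR adjusted p = 0.00869 and 0.00263). Sc5d, the desaturase after Ebp, showed the same order, with 67.7, 83.9 and 54.7 CPM with Ad-Cre and 51.4, 92.0 and 50.1 CPM with Ad-GFP in cardiac, lung and tail tip fibroblasts. Dhcr7, the reductase that makes cholesterol, went the other way and was lowest in lung. It had 24.2, 11.8 and 23.4 CPM with Ad-Cre and 14.8, 11.1 and 23.4 CPM with Ad-GFP in the same origins. Its log2 fold change was 0.75 ± 0.23 for cardiac over lung (edgeR adjusted p = 0.0396) and -1.04 ± 0.23 for lung over tail tip (0.00800). The cardiac call for Dhcr7 was kept in 1 of 6 fits with a library left out, the fit without the cardiac Ad-GFP library. Msmo1, the methylsterol oxidase, at 41.1 to 73.1 CPM, and Hsd17b7, a sterol ketoreductase, at 56.5 to 70.1 CPM, passed in no comparison.

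Among the regulators the 2 SREBP genes had different orders of the origins. Srebf2 (ENSMUSG00000022463), which encodes the SREBP that acts mainly on sterol genes, stood at 89.8 CPM in cardiac, 279 in lung and 182 in tail tip fibroblasts with Ad-Cre, and at 136, 246 and 184 CPM with Ad-GFP. The origins did not overlap. The log2 fold change was -1.24 ± 0.21 for cardiac over lung (edgeR adjusted p = 0.00375) and -0.71 ± 0.20 for cardiac over tail tip (0.0350), and lung over tail tip, 0.53 ± 0.20, did not pass (0.0664). Srebf1 (ENSMUSG00000020538), whose protein acts mainly on fatty acid genes, had 54.9 CPM in cardiac, 51.3 in lung and 110 in tail tip fibroblasts with Ad-Cre, and 103, 46.0 and 111 CPM with Ad-GFP. The cardiac libraries were apart here, 1 near the lung level and 1 near the tail tip level. Lung was lower than tail tip by a log2 fold change of -1.18 ± 0.26 (edgeR adjusted p = 0.00759), and neither cardiac comparison passed. The ratio of Srebf1 to Srebf2, in CPM per kb of exon, was 0.235 with Ad-Cre and 0.238 with Ad-GFP in lung, below the 0.780 and 0.964 in cardiac and the 0.771 and 0.769 in tail tip fibroblasts with the same viruses.

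Insig1, which holds Scap in the endoplasmic reticulum, was lower in cardiac fibroblasts than in both others, with 35.6, 51.7 and 48.9 CPM with Ad-Cre and 32.5, 54.9 and 53.2 CPM with Ad-GFP in cardiac, lung and tail tip fibroblasts. Its log2 fold changes were -0.65 ± 0.16 against lung and -0.59 ± 0.16 against tail tip. Scap, the escort itself, ranged from 54.2 to 92.4 CPM and was lower in cardiac than in lung by -0.53 ± 0.17 (edgeR adjusted p = 0.0464). It was not called in the other comparisons, and its call was lost in 4 of 6 fits with a library left out, those without cardiac Ad-Cre, lung Ad-Cre or either tail tip library. Stard4, a carrier that moves cholesterol between membranes, was highest in lung, with 85.9, 127 and 73.7 CPM with Ad-Cre and 58.0, 138 and 61.8 CPM with Ad-GFP. It differed between lung and both other origins, by -0.91 ± 0.19 for cardiac over lung and 0.98 ± 0.19 for lung over tail tip.

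Of the 7 fatty acid genes, 4 were lower in cardiac than in lung, 2 were higher and 3 lower in cardiac than in tail tip, and 4 were higher and 2 lower in lung than in tail tip. Over all genes the shares, in the same order, were 17.6% lower, 15.5% higher and 18% lower, and 22.3% higher and 28.2% lower. Acly, which splits citrate to supply acetyl-CoA, had 233, 362 and 330 CPM with Ad-Cre and 222, 349 and 308 CPM with Ad-GFP in cardiac, lung and tail tip fibroblasts. It was lower in cardiac by -0.65 ± 0.14 against lung and by -0.49 ± 0.14 against tail tip. Acaca (ENSMUSG00000020532), the carboxylase that makes malonyl-CoA, stood at 70.1 CPM in cardiac, 182 in lung and 84.9 in tail tip fibroblasts with Ad-Cre, and at 66.6, 192 and 82.0 CPM with Ad-GFP. Both lung libraries lay far above the other 4, which ran from 66.6 to 84.9 CPM. The log2 fold change was -1.46 ± 0.14 for cardiac over lung (edgeR adjusted p = 0.000382) and 1.17 ± 0.14 for lung over tail tip (0.000518). Fasn (ENSMUSG00000025153), the fatty acid synthase, had 350, 869 and 344 CPM with Ad-Cre and 481, 837 and 311 CPM with Ad-GFP in the same origins. It too was highest in lung, by -1.05 ± 0.19 for cardiac over lung (edgeR adjusted p = 0.00483) and 1.38 ± 0.19 for lung over tail tip (0.000827), while cardiac over tail tip was 0.33 ± 0.18 and did not pass.

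Scd1 and Scd2, the stearoyl-CoA desaturases that make monounsaturated fatty acids, were highest in tail tip fibroblasts. Scd1 stood at 138 CPM in cardiac, 100.9 in lung and 275 in tail tip fibroblasts with Ad-Cre, and at 123, 110 and 244 CPM with Ad-GFP. Scd2 had 208, 345 and 613 CPM with Ad-Cre and 192, 347 and 550 CPM with Ad-GFP. The lowest origin was thus lung for Scd1 and cardiac for Scd2, with no overlap between origins for either gene. Scd2 was lower in cardiac than in tail tip by a log2 fold change of -1.54 ± 0.14 (edgeR adjusted p = 0.000286), and Scd1 was lower in lung than in tail tip by -1.29 ± 0.15 (0.000439). The ratio of Scd2 to Scd1, in CPM per kb of exon, was 1.35 with Ad-Cre and 1.40 with Ad-GFP in cardiac, 3.06 and 2.83 in lung, and 1.999 and 2.02 in tail tip fibroblasts. Fasn over Scd1 on the same scale was 1.13 and 1.74 in cardiac, 3.85 and 3.40 in lung, and 0.559 and 0.569 in tail tip fibroblasts with Ad-Cre and Ad-GFP. Fads1 and Fads2, which desaturate polyunsaturated fatty acids, were lowest in tail tip. Fads2 had 97.0, 114 and 56.6 CPM with Ad-Cre and 96.1, 125 and 56.1 CPM with Ad-GFP in cardiac, lung and tail tip fibroblasts, and Fads1 ranged from 96.1 to 155 CPM. For Fads2 the log2 fold change was 0.78 ± 0.14 for cardiac over tail tip (edgeR adjusted p = 0.00621) and 1.08 ± 0.14 for lung over tail tip (0.000764), and for Fads1 it was 0.53 ± 0.14 and 0.63 ± 0.14.

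**Figure D3:**
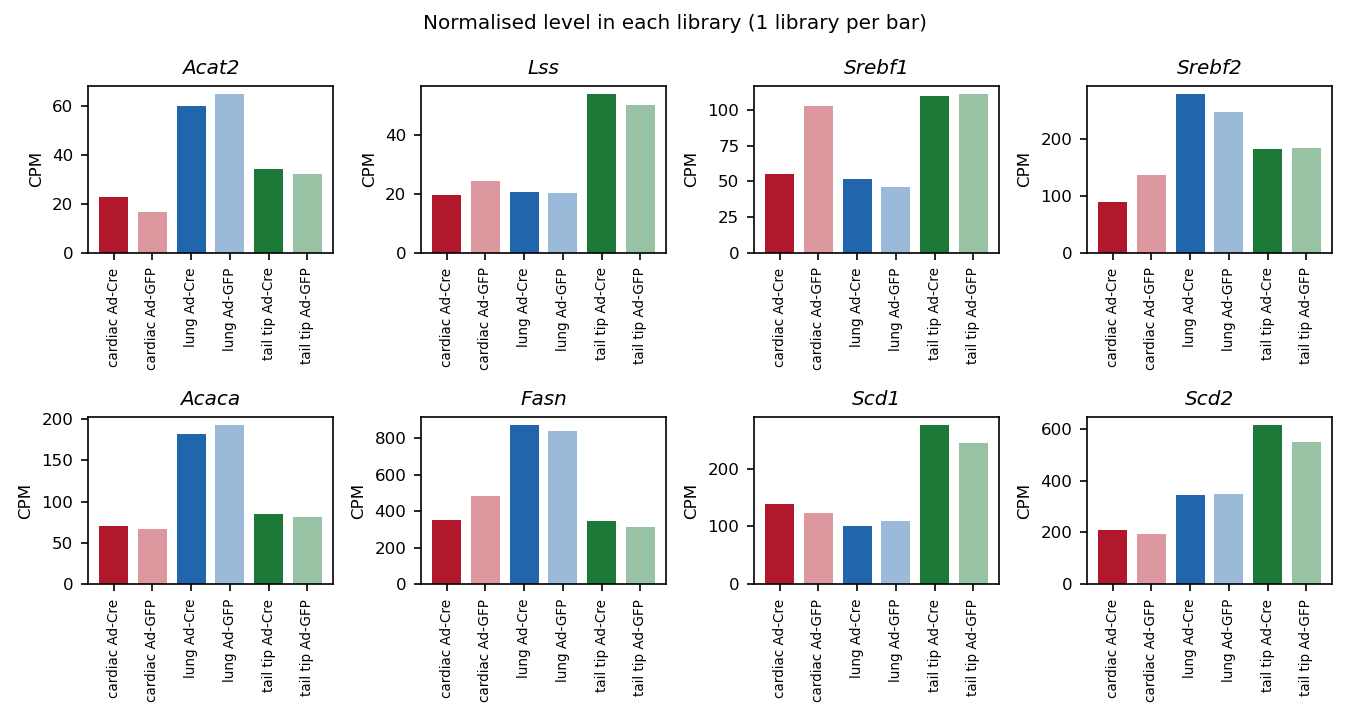
CPM of 8 of the genes in each library, 1 bar per library, with dark bars for Ad-Cre and pale bars for Ad-GFP within each origin. Fasn and Acaca are highest in the lung libraries, Lss, Scd1 and Scd2 in the tail tip libraries, and Srebf1 is at 54.9 CPM with Ad-Cre and 103 CPM with Ad-GFP in cardiac fibroblasts.

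Across the 3 comparisons the genes fell into a few patterns, and 27 of 30 were called at least once, against 62.5% of all genes tested. Lower in cardiac than in both other origins were 13 of 30, namely Acat2, Hmgcs1, Mvd, Idi1, Fdps, Fdft1, Sqle, Cyp51, Nsdhl, Srebf2, Insig1, Acly and Scd2, a pattern held by 4.28% of all genes. No gene of the 30 was higher in cardiac than in both others by the edgeR test, against 4.73% of all genes. Higher in lung than in both were 6 (Acat2, Ebp, Sc5d, Stard4, Acaca and Fasn), where 11.6% of all genes were. Higher in tail tip than in both were also 6 (Hmgcs1, Mvk, Lss, Tm7sf2, Scd1 and Scd2), against 13.4%, lower in tail tip 2 (Fads1 and Fads2), against 10.1%, and lower in lung 1 (Dhcr7), against 15.8%. Without any test, both cardiac libraries lay below the other 4 for 16 of 30 genes, which held for 14.1% of all genes. Both lung libraries lay above the other 4 for 12 genes (26.1% of all genes) and both tail tip libraries for 12 (28.3%).

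The count of 13 was also 13 under DESeq2, limma-voom, both other scalings and both other filters, with all 13 genes kept. It moved more when a library was left out. It was 3 without the tail tip Ad-Cre library (Mvd, Nsdhl and Scd2), 7 without the tail tip Ad-GFP library, 9 and 11 without the lung Ad-GFP and lung Ad-Cre libraries, and 12 and 15 without the cardiac Ad-Cre and cardiac Ad-GFP libraries. Of the 19 genes lower in cardiac than in lung, 12 were called in each of the 6 fits, and of the 17 lower than in tail tip, 7 were. The 12 were Acat2, Fdft1, Sqle, Cyp51, Nsdhl, Ebp, Srebf2, Stard4, Acly, Acaca, Fasn and Scd2. The 7 were Hmgcs1, Mvd, Lss, Tm7sf2, Nsdhl, Scd1 and Scd2. Between lung and tail tip, 6 of 8 higher genes (Acat2, Ebp, Stard4, Acaca, Fasn and Fads2) and 4 of 8 lower genes (Mvk, Lss, Srebf1 and Scd1) were called in all 6 fits. The calls of Fads1 and Fads2 between cardiac and tail tip were lost without either tail tip library. The share of all called genes kept in all 6 fits was not counted, so the counts of kept genes have no background to be read against. The share of all genes lower in cardiac than in both others is not given for these fits either. Without either tail tip library, fewer of all genes tested were called between cardiac and tail tip than in the main fit. Without either cardiac library more were. The smaller counts of the pattern are thus not read as particular to the genes described here.

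Every lost call kept its direction in the 6 fits. Against lung, the cardiac calls of Mvd (lost without lung Ad-Cre, with log2 fold changes of -1.23 to -0.55 over the 6 fits), Idi1 (-1.27 to -0.46) and Insig1 (-0.76 to -0.57), both lost without lung Ad-GFP, depended on 1 library. Fdps (-0.73 to -0.45) and Sc5d (-0.80 to -0.41) were lost without that library or either tail tip library, and Hmgcs1 (-0.61 to -0.45) was called only in the fits without a cardiac library. Against tail tip, Idi1, Fdps, Fdft1 (-1.52 to -0.59), Sqle and Cyp51 (-1.25 to -0.75) were lost without the tail tip Ad-Cre library alone. Acat2, Insig1 and Acly were lost without either tail tip library, and Mvk (-0.79 to -0.40) and Srebf2 (-1.11 to -0.37) without either of these or the cardiac Ad-Cre library. Between lung and tail tip, Tm7sf2 (-2.44 to -1.61) and Scd2 were lost without the tail tip Ad-Cre library, Dhcr7 without the tail tip Ad-GFP library, and Fads1 without either. Hmgcs1 and Sc5d were lost without either tail tip library or without 1 lung library, Ad-Cre for Hmgcs1 and Ad-GFP for Sc5d.

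The levels were also summed over the genes of a role. The 7 genes to mevalonate and the isoprenoids summed to 193 CPM in cardiac, 291 in lung and 380 in tail tip fibroblasts with Ad-Cre, and to 205, 328 and 355 CPM with Ad-GFP. The 11 later sterol genes summed to 395, 541 and 622 CPM with Ad-Cre and 415, 616 and 567 CPM with Ad-GFP. The 7 fatty acid genes summed to 1236, 2121 and 1802 CPM with Ad-Cre and 1324, 2115 and 1647 CPM with Ad-GFP. The cardiac libraries had the lowest sum in each role. Lung was above tail tip for the fatty acid genes and below it for the mevalonate genes. For the later sterol genes lung was below tail tip with Ad-Cre and above it with Ad-GFP. The order of the fatty acid sum rests largely on Fasn. That gene held 869 (Ad-Cre) and 837 CPM (Ad-GFP) in lung and 344 and 311 CPM in tail tip. Acly, Acaca, Fads1 and Fads2 were also higher in lung, and Scd1 and Scd2 were higher in tail tip. In the GENCODE M21 annotation 7 of the 30 genes share exon sequence with a gene on the other strand (Fdft1, Srebf1, Cyp51, Hmgcs1, Idi1, Lss and Scap), and 4 with one on the same strand (Fdps, Tm7sf2, Srebf1 and Scd2). Without a stated strand setting their reads cannot be told apart from those of the partner, and how reads that match both Scd1 and Scd2 were counted is not given in the sources used here. Per kb of exon and averaged over the 6 libraries, the most abundant of the 30 were Scd2 (68.8 CPM per kb), Acly (57.0) and Fasn (48.6), and the least abundant was Tm7sf2 (0.715).

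The question behind the study design is what changes in the cells given Ad-Cre. As 1 effect common to the 3 origins, none of the 30 genes passed (edgeR, 0 higher and 0 lower), and 0% of all 18143 genes did. None of the 30 had an unadjusted p under 0.05, where 367 of all genes had one. DESeq2 called 3 genes in all and limma-voom 0, none of them among the 30. The log2 fold changes of the 30 genes ran from -0.35 (Tm7sf2, SE 0.35) to 0.27 (Dhcr7, SE 0.19), with a median of -0.02 against 0.00 over all genes. Their SE ran from 0.11 to 0.35. A common change of the size of these errors would not be detectable with these libraries, and larger changes could be missed too. Lpin1, a lipogenic gene outside the 30, was at 0.57 ± 0.23 and did not pass the adjusted threshold. The absence of calls thus does not exclude common changes larger than these errors.

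Within an origin there is 1 library for each virus, so the ratios have no replicate check, and their 95% intervals cover counting error only. The shares of all genes past 1.5-fold, here and below, are not matched to the 30 genes in expression. In cardiac fibroblasts 5 of 30 genes differed at least 1.5-fold, 4 lower and 1 higher in the library labelled Ad-Cre, where 36.8% of all genes did, 17.4% lower and 19.5% higher. Srebf1 was at 54.9 CPM with Ad-Cre and 103 CPM with Ad-GFP, a ratio of 0.534 (interval 0.503 to 0.566). Fdft1 was at 20.2 CPM with Ad-Cre and 37.3 CPM with Ad-GFP, a ratio of 0.541 (0.490 to 0.596). Srebf2 was at 89.8 CPM with Ad-Cre and 136 CPM with Ad-GFP, a ratio of 0.660 (0.629 to 0.692). Both SREBP genes and the squalene synthase gene were thus lower in that library, as was Tm7sf2 on few reads, with 19 reads with Ad-Cre and 44 with Ad-GFP (ratio 0.460, 0.254 to 0.804). Dhcr7 went the other way, with 24.2 CPM with Ad-Cre and 14.8 CPM with Ad-GFP, a ratio of 1.63 (1.45 to 1.84). Fdft1 and Srebf1 overlap antisense exons of Ctsb and Rai1 in that annotation, so the limit on strand given above applies to both ratios.

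The remaining cardiac ratios were smaller and pointed both ways. Stard4 had a ratio of 1.48 (1.40 to 1.57), Acat2 1.38 (1.23 to 1.54) and Idi1 1.32 (1.17 to 1.49), while Mvd had 0.689 (0.577 to 0.820), Fasn 0.728 (0.710 to 0.746) and Cyp51 0.749 (0.703 to 0.799). In all, 15 of 30 log2 ratios were below 0 and 15 above, with a median of -0.01 against 0.00 over all genes. The cardiac libraries also differed in their markers. The 9 epithelial markers summed to 145 CPM with Ad-Cre and 14.4 CPM with Ad-GFP, where Krt5 and Krt14 had 0 reads, and the 5 mesothelial markers to 116 and 56.7 CPM with the same viruses. The 8 fibroblast markers summed to 11502 CPM with Ad-Cre and 16693 CPM with Ad-GFP, and the macrophage sums given above differed in the same direction. Col1a1 and Col1a2 made up most of the fibroblast sum. With Ad-Cre they were lower, as were Col3a1, Dcn, Lum and Thy1. Pdgfra (408 CPM with Ad-Cre and 268 with Ad-GFP) and Pdgfrb (416 and 263 CPM) were higher. Of the mesothelial markers, Wt1 and Lrrn4 were lower with Ad-Cre and the others higher. The part of these markers in the cardiac ratios was not tested.

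In lung fibroblasts none of the 30 genes reached 1.5-fold, where 19.3% of all genes did, 11.1% higher and 8.18% lower, and 20 of 30 log2 ratios were below 0, with a median of -0.08 against 0.03 over all genes, of which 44.8% were below 0. Of the 30 counting intervals, 15 lay below 1, 6 above 1 and 9 included 1. The lowest was Idi1, at 25.3 CPM with Ad-Cre and 36.1 CPM with Ad-GFP (ratio 0.701, 0.635 to 0.774), and Msmo1, Cyp51 and Sqle followed at 0.774, 0.826 and 0.841. Mvk was the highest at 1.23 (1.07 to 1.41). In tail tip fibroblasts none reached 1.5-fold either, where 10.2% of all genes did, 4.76% higher and 5.42% lower, but 26 of 30 log2 ratios were above 0, with a median of 0.10 against 0.01 over all genes, of which 51.7% were above 0. Of the 30 counting intervals, 15 lay above 1, 1 below 1 and 14 included 1. Such intervals were not counted over all genes in either origin, so these interval counts have no background to be read against. All 7 genes to mevalonate and the isoprenoids and all 7 fatty acid genes were among the 26. Msmo1 was the highest, at 73.1 CPM with Ad-Cre and 59.3 CPM with Ad-GFP (ratio 1.23, 1.16 to 1.31), and Insig1 the lowest at 0.919 (0.858 to 0.985). The genes are not independent replicates, and each tail tip or lung ratio compares the same pair of libraries.

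**Figure D4:**
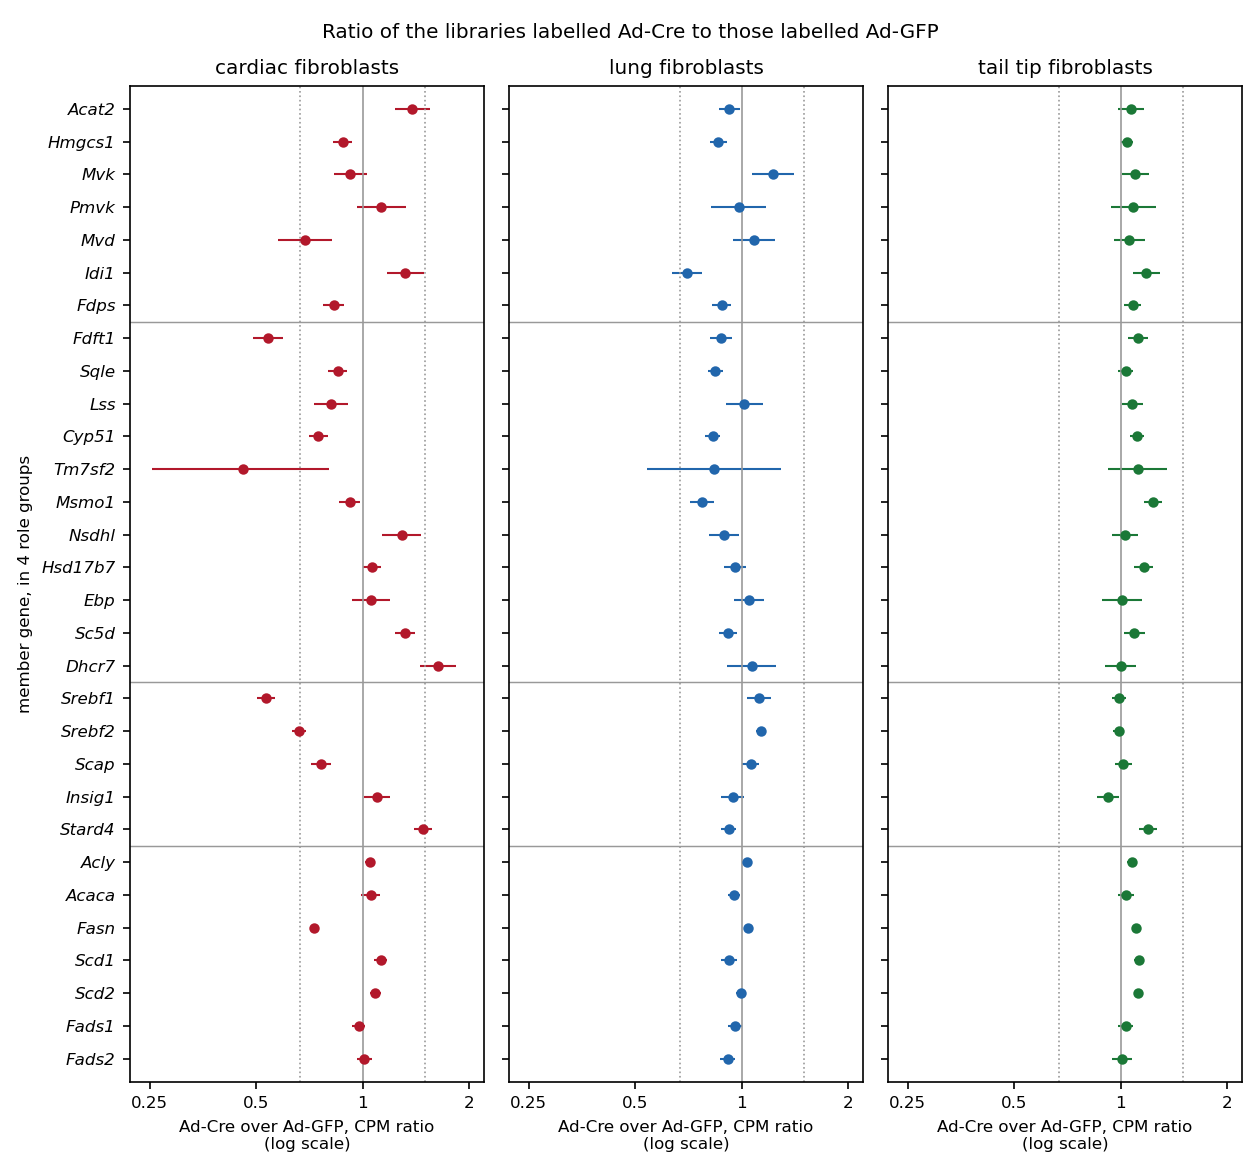
Ratio of CPM in the library labelled Ad-Cre to that labelled Ad-GFP for each gene (log axis) in cardiac, lung and tail tip fibroblasts, with exact 95% intervals for counting error and dotted lines at 1.5-fold in either direction. The cardiac ratios run from 0.460 to 1.63, and the lung and tail tip ratios stay within 1.5-fold.

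Around these genes, 54 others of the same pathways were examined in 4 lists, of which 50 had enough reads to be tested. Their counts are to be read against the shares of all genes called, which were 38.4% for cardiac over lung, 33.5% for cardiac over tail tip and 50.6% for lung over tail tip. Of 15 sterol uptake, export and storage genes, 8 were higher and 1 lower in cardiac than in lung, 3 were higher and 6 lower in cardiac than in tail tip, and 1 was higher and 12 lower in lung than in tail tip fibroblasts. Abca1 and Abcg1 export cholesterol to lipoproteins. Abcg1 stood at 22.0 CPM in cardiac, 0.273 in lung and 25.7 in tail tip fibroblasts with Ad-Cre, and at 7.32, 0.103 and 25.8 CPM with Ad-GFP. Its lung level was near the floor, and the log2 fold change was -7.20 ± 0.56 for lung over tail tip (edgeR adjusted p = 6.21e-05). Lipa, the lysosomal acid lipase that frees cholesterol from lipoproteins, had 113, 18.2 and 132 CPM with Ad-Cre and 97.6, 18.5 and 143 CPM with Ad-GFP in cardiac, lung and tail tip fibroblasts. Its log2 fold change was 2.52 ± 0.16 for cardiac over lung (edgeR adjusted p = 6.30e-05). Nr1h3, a nuclear receptor for oxysterols, had 3.18, 0.585 and 10.7 CPM with Ad-Cre and 1.23, 0.652 and 15.3 CPM with Ad-GFP. The macrophage sums had the same order of origins, lowest in lung and highest in tail tip, and the 9 adipocyte markers summed to 140, 14.1 and 423 CPM with Ad-Cre and 154, 10.9 and 569 CPM with Ad-GFP, most of it from Lpl and Cd36. Lep was at 0 in all 6 libraries and Adipoq had at most 2 reads in any. Not all genes of the sterol uptake, export and storage list had the order of the macrophage sums, since Scarb1 and Vldlr were highest in cardiac fibroblasts. The part of macrophages or adipocytes in these levels was not tested.

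Of 8 other SREBP processing and turnover genes, 2 were higher and 1 lower in cardiac than in lung, 1 higher and 3 lower in cardiac than in tail tip, and 1 higher and 2 lower in lung than in tail tip. The 3 of 8 called between cardiac and lung are near the 38.4% of all genes, the 4 of 8 between cardiac and tail tip compare with 33.5%, and the 3 of 8 between lung and tail tip are below the 50.6%. Insig2, the second Insig gene, did not follow Insig1. It stood at 32.5, 12.5 and 91.6 CPM with Ad-Cre and 22.4, 14.0 and 81.9 CPM with Ad-GFP in cardiac, lung and tail tip fibroblasts, without overlap. The log2 fold change was -2.70 ± 0.21 for lung over tail tip (edgeR adjusted p = 6.46e-05) and 1.03 ± 0.20 for cardiac over lung (0.00737). Mbtps1, the protease that makes the first cut in SREBP, had 119, 91.0 and 244 CPM with Ad-Cre and 127, 87.2 and 236 CPM with Ad-GFP. Lung was again lowest and tail tip highest, with -1.43 ± 0.14 for lung over tail tip (edgeR adjusted p = 0.000202). Rnf145, a ubiquitin ligase that acts on Scap, was lower in cardiac than in both others, by -0.86 ± 0.16 against lung and -0.71 ± 0.16 against tail tip.

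The 20 other lipogenic genes tested held 8 higher and 3 lower in cardiac than in lung, 3 higher and 5 lower in cardiac than in tail tip, and 5 higher and 9 lower in lung than in tail tip, against 38.4%, 33.5% and 50.6% of all genes called in the same order. The count for cardiac over tail tip, 8 of 20, is near that background. Acss2, which makes acetyl-CoA from acetate, was at 5.44, 0.975 and 17.4 CPM with Ad-Cre and 4.64, 1.37 and 15.6 CPM with Ad-GFP in cardiac, lung and tail tip fibroblasts. Lpin1, a phosphatidate phosphatase of triglyceride synthesis, had 16.8, 2.18 and 29.9 CPM with Ad-Cre and 7.62, 1.89 and 24.7 CPM with Ad-GFP. For lung over tail tip the log2 fold change was -3.80 ± 0.31 for Acss2 and -3.74 ± 0.31 for Lpin1 (edgeR adjusted p = 8.14e-05 and 8.33e-05). The lung cells with the highest Fasn and Acaca thus had the lowest Acss2 and Lpin1. Fads3, a desaturase of the Fads family, was instead highest in cardiac fibroblasts, with 239, 82.3 and 136 CPM with Ad-Cre and 272, 69.4 and 133 CPM with Ad-GFP. Its log2 fold change was 1.75 ± 0.16 for cardiac over lung (edgeR adjusted p = 0.000292). Acsl3, which activates fatty acids, was highest in lung, with -1.46 ± 0.15 for cardiac over lung and 1.15 ± 0.15 for lung over tail tip.

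**Figure D5:**
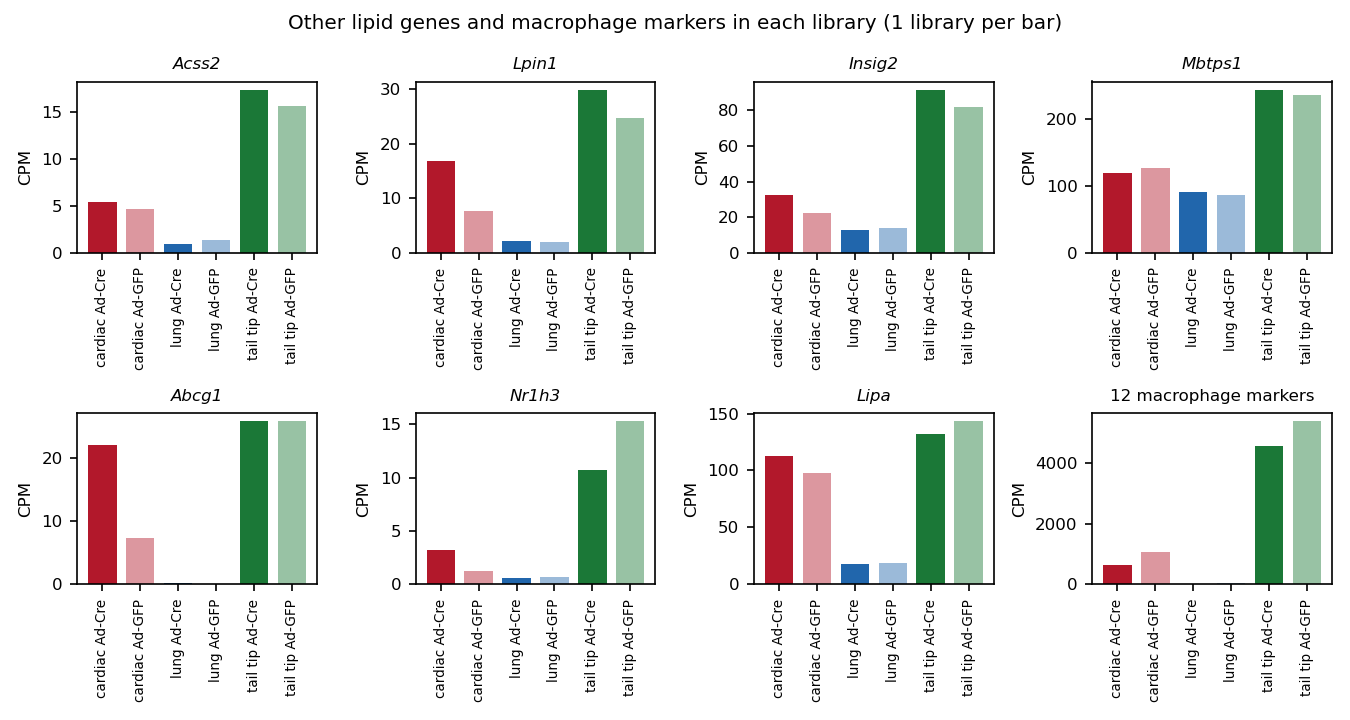
CPM of 7 other lipid genes and the summed CPM of 12 macrophage markers in each library, 1 bar per library, with dark bars for Ad-Cre and pale bars for Ad-GFP. All 8 panels are lowest in the lung libraries and highest in the tail tip libraries. The 7 genes were picked and do not stand for their lists, in which Fads3 was highest in cardiac and Acsl3 in lung fibroblasts.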

How the data were processed

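Raw read counts per Ensembl gene were used as the authors deposited them, in 1 table with 6 library columns and 57180 identifiers, all of which name a gene. RNA was extracted with TRIzol and selected for polyadenylated transcripts, per the labels' protocols, and STAR 2.0.7 and mm39 are named in the submitters' processing notes without a role. The counting tool, the annotation and the strand setting were not given in the sources used here. The labels refer to a matrix under a title with another subject, and the column names were matched to the sample titles.

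Symbols were looked up by identifier (51884 matched). The main test was edgeR 4.0.16 (R 4.3.3) with robust quasi-likelihood F-tests, TMM factors of 0.964 to 1.03, a minimum count of 10 and Benjamini-Hochberg adjustment over 18143 genes. The additive model of origin and virus was fitted over all 6 libraries. It leaves 2 residual degrees of freedom, and the standard error is the fold change divided by the square root of F. Within an origin, ratios of CPM have exact conditional 95% intervals, which cover counting error only, and 1.5-fold is counted on log2 ratios with a prior count of 2. DESeq2 1.42.0, limma-voom (limma 3.58.1) with sample weights, other scalings, filters and folds, and fits without a library were the alternatives. Exon lengths and overlaps come from GENCODE M21 (GRCm38), which is not the build in the notes, so no position of the counts was read from it.

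Members and lists were chosen with earlier results of these data known. Genes named with values in each library are those called in an origin comparison, up to 10 per comparison by fold change, and those past 1.5-fold between the viruses; from the lists of other pathway genes, up to 4 per comparison are named. Further members were named after their values were seen, so that all 30 are accounted for.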

Additional observations from a re-analysis of the deposited data

Results flagged for a closer look

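The counting intervals of the ratio between the viruses lay above 1 in one origin and below 1 in another for 17 of 30 genes. In 3 of these, given here, the ratio also passed 1.5-fold in an origin. With 1 library per virus and origin the difference itself was not tested. The share of all genes with intervals on opposite sides of 1 was not counted. The 17 of 30 thus has no background and is not read as particular to these genes. The Fdft1 ratio of Ad-Cre over Ad-GFP was 0.541 in cardiac and 1.12 in tail tip fibroblasts. The Srebf1 ratio was 0.534 in cardiac and 1.12 in lung fibroblasts. For Srebf2 it was 0.660 in cardiac and 1.13 in lung fibroblasts.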

How the results depend on the processing

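No paired analysis was possible because each group holds 1 library, and origin, which joins the 2 viruses, is already a term of the model. Of the counts among the 30 genes, those higher in cardiac than in lung were 2 with no filter and with limma-voom and 0 without both tail tip libraries (0 to 2 with 1 library left out), and those higher in cardiac than in tail tip were 1 with no filter (0 to 3). Counts lower in cardiac than in tail tip ran from 7 to 20 with 1 library left out, lower in cardiac than in lung from 14 to 20, higher in lung than in tail tip from 6 to 9 and lower from 5 to 10. Over all genes, calls between cardiac and tail tip ran from 3110 to 9208 and between lung and tail tip from 5995 to 12560. For the virus, DESeq2 called 3 genes, the fit with no filter 141, those without both cardiac and both tail tip libraries 3 and 36, and those without 1 library 11 to 109. Among patterns, chosen after seeing the data, lower in tail tip was 1 with no filter (0 to 3), lower in lung 2 with no filter and limma-voom (0 to 2), lower in cardiac 3 to 15 and higher in tail tip 2 to 9. Within cardiac fibroblasts 2 genes were 1.5-fold higher without TMM factors, and at 2-fold 0 were higher and 1 lower, where 3687 of all genes passed 2-fold. In lung 1395 of all genes did, and in tail tip fibroblasts 563. The cause of these changes was not tested.

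Signs turned only for genes called in no setting of that comparison. Fdft1 for lung over tail tip was 0.0037 with DESeq2, 0.0040 with its size factors, 0.019 with a mean of at least 1 CPM, 0.0063 with limma-voom and 0.022 without both cardiac libraries. With 1 library left out, cardiac over lung ran from -0.12 to 0.29 for Lss, -0.039 to 0.12 for Pmvk and -0.14 to 0.31 for Msmo1. Cardiac over tail tip ran from -0.017 to 0.33 for Sc5d and -0.18 to 0.27 for Stard4. Lung over tail tip ran from -0.34 to 0.36 for Fdft1, -0.46 to 0.35 for Idi1, -0.20 to 0.014 for Hsd17b7, -0.33 to 0.17 for Cyp51 and -0.012 to 0.12 for Insig1.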

Other observations

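The genes that branch off the isoprenoid diphosphates, to ubiquinone, dolichol and prenylated proteins, were tested as a list of 7. In cardiac fibroblasts 1 was higher and 1 lower than in lung, and 3 were higher and 1 lower than in tail tip, while lung had 3 higher and 2 lower than tail tip. Of all genes, 38.4%, 33.5% and 50.6% were called in these comparisons, so the 2 of 7 between cardiac and lung are below the background. Pdss1, a subunit of the enzyme that makes the ubiquinone side chain, stood at 12.3 CPM in cardiac, 27.0 in lung and 4.98 in tail tip fibroblasts with Ad-Cre, and at 15.7, 26.3 and 5.03 CPM with Ad-GFP. The origins did not overlap, and the log2 fold change for lung over tail tip was 2.41 ± 0.21 by edgeR.

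Cyp7b1, a hydroxylase of oxysterols, was far higher in tail tip fibroblasts, with 1.08, 1.44 and 152 CPM with Ad-Cre and 0.338, 2.40 and 135 CPM with Ad-GFP in cardiac, lung and tail tip fibroblasts. Ch25h, which makes an oxysterol that holds Insig and Scap together, was at 17.2 CPM with Ad-Cre and 72.1 CPM with Ad-GFP in cardiac fibroblasts. In lung it had 0.702 CPM with Ad-Cre and 0.961 CPM with Ad-GFP, and in tail tip fibroblasts 12.2 CPM with Ad-Cre and 10.3 CPM with Ad-GFP.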
